A study of Homo sapiens with 27 samples.

Results

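HuES6 cells at the end of a cardiac differentiation with the WNT inhibitor IWP-2 were compared with the undifferentiated cells the differentiation started from. The comparison used the day 8 arrays of the inhibitor arms and the day 0 arrays of the same time courses, 2 arrays against 2, which are 4 of the 27 bead arrays in the set. HuES6 is an established human embryonic stem cell line, so every value comes from 1 line. Cells grew on plates coated with Matrigel in defined medium without serum. On day 0 they were undifferentiated. For the next 24 hours they received FGF2 (10 ng/ml) with BMP4 (1 ng/ml) and a CHIR compound (1 µM), with insulin present at that step and withdrawn from day 1. Time course 1 had IWP-2 on days 2 and 3, whereas in time course 2 it was added on days 1 and 2. The labels give no number for its dose. A second comparison set the day 8 inhibitor arrays against the 2 day 8 arrays of cells treated alike but without the inhibitor.

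Embryonic stem cells are held in the undifferentiated state by a small circuit of transcription factors, with POU5F1 (OCT4), SOX2 and NANOG at its core, and they divide rapidly with a short gap before DNA synthesis. A rise of WNT and BMP signalling drives them through a primitive streak state into mesoderm. Blocking WNT secretion after that step, here with IWP-2, an inhibitor of the acyltransferase Porcupine, is a standard way to steer mesoderm into heart muscle. Cardiomyocytes are filled with sarcomeres, the repeating units of myosin thick filaments and actin thin filaments that contract when the sarcoplasmic reticulum releases calcium.

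Between 16424 and 19784 probes were detected per array over the set. The mean scanner signal was 324.8 and 322.9 on the day 0 arrays and 293.1 on the day 8 array of time course 1. It was 225.2 on the day 8 array of time course 2, while every other array of the set had at least 293.1. Arrays of the same group from both time courses correlated across genes with r = 0.978 on day 0 and 0.973 on day 8. Day 0 and day 8 arrays of the same time course correlated with r = 0.878 in time course 1 and 0.864 in time course 2. Levels are normalised log2 intensities, given for time course 1 and then time course 2, ± gives the standard error of a log2 difference (2 arrays against 2), and adjusted p-values are from limma after Benjamini and Hochberg. Whether separate cultures lay behind the arrays is not said in the labels, and a p-value then covers only the spread among these arrays, possibly technical. The time courses also differ in the IWP-2 window, and precision is limited by the small number of arrays.

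The labels were checked against marker genes, whose levels were summed on the linear scale. All 7 measured markers of undifferentiated stem cells were detected on both day 0 arrays, with a summed level of 23259 and 21149. On the day 8 arrays 4 and 3 of them were detected, with sums of 1805 and 679, and POU5F1, NANOG and SOX2 were not above background on either. All 11 cardiomyocyte markers were detected on both day 8 arrays, with sums of 55402 and 63610, against 3 of 11 on each day 0 array, with sums of 303 and 419. The day 8 label thus goes with heart muscle RNA on both arrays, the dim one included.

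Of 13572 genes tested, 6074 passed an adjusted p of 0.05, which is 44.8%. Among them 3025 were higher on day 8 with IWP-2 (22.3%) and 3049 were lower (22.5%). The difference had the same sign in both time courses for 6063 of the genes that passed. At least a 2-fold difference was reached by 3234 of them, and at least an 8-fold difference by 408, of which 249 were higher and 159 lower. The median difference over all genes was -0.01. Without the dim array 4936 genes passed, with the lone day 8 array assumed to vary like the other groups. Genes that code for parts of the sarcomere led the higher end and genes of the stem cell state the lower end.

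**Figure D1:**
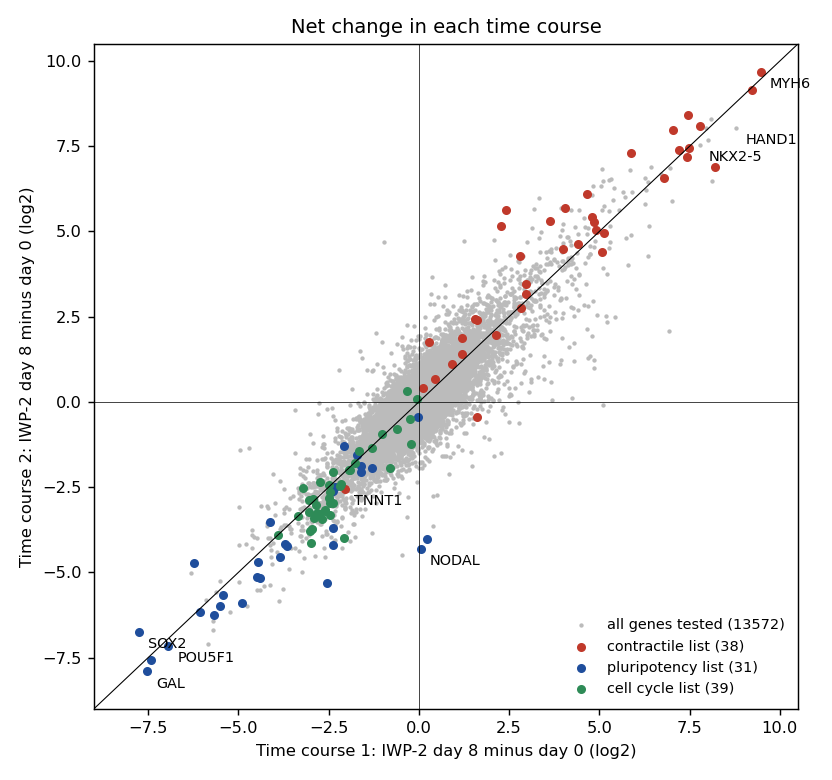
Each point is 1 of 13572 genes, with the log2 difference between day 8 with IWP-2 and day 0 in time course 1 on the horizontal axis and in time course 2 on the vertical axis; the diagonal marks equal differences. Contractile genes (red, 38) lie mostly at the upper right, pluripotency genes (blue, 31) and cell cycle genes (green, 39) mostly at the lower left, and NODAL lies well below the diagonal.

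The undifferentiated state was described first through 31 genes of the pluripotency list, all of them measured. Of these 29 fell, 0 rose and LEFTY2 and DPPA3 did not pass, and the list's median difference was -3.93, against -0.01 over all genes. POU5F1, the OCT4 factor, read 11.43 and 11.42 on day 0 and 4.49 and 4.28 on day 8. The day 8 values were not above background, so the fall was to a level at least 89.1-fold lower (limma adjusted p = 6.5e-12). A second POU5F1 probe differed by -0.39 ± 0.15, which also passed and was far smaller. SOX2, the partner of OCT4 on DNA, read 11.96 and 11.15 on day 0 and 4.20 and 4.41 on day 8, at least 97.4-fold lower. NANOG, the third core factor, read 10.32 and 10.42 on day 0 and 4.25 on both day 8 arrays, at least 42.8-fold lower, while its second probe differed by -2.00 ± 0.20. For each of the 3 core factors both day 8 arrays lay far below both day 0 arrays.

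The core factors bind DNA together at a composite site that joins an OCT part and a SOX part, here CATTGTNATGC searched on both strands, and the promoter of NANOG is the textbook case. The site occurred in 5 of 10806 promoters of the genes tested (0.0463%), each taken from 250 bases before to 50 after the start, and in 1 of 18 promoters of the pluripotency list, that of NANOG. The upstream stretch below comes from RefSeq's table (GRCh38.p14, chr12:7789252-7789401, plus strand) and ends at the base before the transcription start. Capitals mark the composite site, which starts 117 bases upstream and is read here on its reverse strand.
NANOG: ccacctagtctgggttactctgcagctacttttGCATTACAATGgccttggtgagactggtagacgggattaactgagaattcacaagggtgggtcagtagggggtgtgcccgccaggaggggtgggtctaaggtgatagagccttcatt

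Other members of the list that fell ranged from early markers to cell surface proteins. GAL, the neuropeptide galanin, read 12.10 and 12.11 on day 0 and 4.57 and 4.21 on day 8, at least 142.9-fold lower and with the largest fitted difference among the genes that were lower (-7.72 ± 0.36). ZIC2, a zinc finger factor of the primed stem cell state and of neural tissue, fell from 12.27 and 11.83 to 4.85 and 4.25, at least 136.8-fold. LEFTY1, a secreted NODAL antagonist, fell at least 29.0-fold, and the DNA-binding factor PRDM14 at least 29.4-fold. ZSCAN10, another zinc finger factor of stem cells, fell at least 42.1-fold. LIN28A, which blocks maturation of let-7 microRNAs, was still detected on both day 8 arrays, at 10.29 and 8.29 against 12.66 and 12.47 on day 0 (-3.28 ± 0.47). The list thus held genes that dropped out of detection and genes that were lower but present. LEFTY2, a second NODAL antagonist, read 8.00 and 9.64 on day 0 and 8.24 and 5.62 on day 8, so its groups overlapped.

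Genes lower on day 8 outside that list included NTS, which codes for neurotensin (-6.48 ± 0.70), and GRPR, the receptor of gastrin-releasing peptide (at least 45.3-fold lower). ALPL, the alkaline phosphatase used to stain stem cell colonies, fell from 10.78 and 10.72 to 5.07 and 4.29 (-6.07 ± 0.49). MT1G, a metallothionein that binds zinc, fell from 10.27 and 11.07 to 4.57 and 4.39. CFAP95 fell by 5.69 on the log2 scale.

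Among genes tied to LIN28 and let-7, 8 of 14 fell (57.1%, against 22.5% of all genes) and 0 rose (median -0.72). They included TRIM71 (-2.85 ± 0.27), a let-7 target that binds RNA, HMGA1 (-1.96 ± 0.25), a chromatin protein whose second probe did not pass, and MYC (-3.43 ± 0.54). LIN28B fell by 1.62 on the log2 scale. HMGA2, IGF2BP2 and DICER1 did not pass. Of 16 measured enzymes and cofactors of DNA methylation and chromatin, 10 fell (62.5%, against 22.5% of all genes) and 0 rose (median -1.10). DNMT3B, a methyltransferase that sets new marks and is abundant in stem cells, read 12.32 and 11.90 on day 0 and 7.91 and 6.73 on day 8 (-4.79 ± 0.23), and its 3 other probes fell by 4.77, 4.28 and 2.12. HELLS, a remodeller needed for methylation, differed by -3.69, UHRF1, which brings DNMT1 to newly copied DNA, by -2.90, JARID2, a subunit of Polycomb complex PRC2, by -1.95 and its catalytic subunit EZH2 by -1.66. The opposing enzyme TET1 differed by -0.50 and did not pass.

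The stem cell microRNA cluster miR-302 was read only through probes for its precursor genes MIR302C and MIR302D, which were singled out after their values were seen. Their mature products share the seed AAGUGCU, bases 2 to 8, shown in capitals in the RefSeq sequences below (GRCh38.p14, minus strand, chr4:112648366-112648388 and chr4:112648006-112648028).
hsa-miR-302c-3p: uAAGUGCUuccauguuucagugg
hsa-miR-302d-3p: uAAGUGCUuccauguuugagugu
The MIR302C probe read 8.09 and 7.27 on day 0 and 4.26 and 4.96 on day 8 (-3.07 ± 0.25, limma adjusted p = 1.2e-07). The MIR302D probe read 5.69 and 5.73 and then 4.30 and 4.31. Day 0 arrays lay above day 8 arrays for both. A probe for a precursor does not measure the mature microRNA.

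The contractile apparatus was taken as 38 measured genes. Of these 35 rose and 1 fell, with a median difference of 4.49 (4.03 in time course 1 and 5.00 in time course 2). Genes counted as measured were detected on at least 2 of the 27 arrays. Members at background on day 0 entered through other arrays, which favours a rise in these counts. In bulk RNA, more cells of a type and more RNA per cell cannot be told apart.

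Thick filament genes rose in 7 of 8 measured (median 6.21), while MYL2 and MYBPC3 were not measured. MYH6, the fast alpha myosin heavy chain of atria and early heart, had the largest difference of all genes that passed: it read 4.48 and 4.48 on day 0 and 13.96 and 14.17 on day 8, at least 553.3-fold higher (9.58 ± 0.79, limma adjusted p = 1.3e-07). The level of 14.17 is the ceiling that quantile normalization gives every array, so its rise may be understated. MYL4, the atrial essential light chain, rose from 4.65 and 4.71 to 13.87 and 13.84, at least 480.3-fold. MYL7, the atrial regulatory light chain, was already detected on day 0 at 5.49 and 7.04 and rose to 13.69 and 13.94. MYL3, the ventricular and slow muscle light chain, rose from background to 12.15 and 12.28, at least 154.0-fold. MYH7, the slow beta heavy chain that later dominates in the human ventricle, read 6.70 and 9.85 on day 8, at least 10.0-fold above day 0, and the day 8 arrays differed more from each other than for MYH6. MYLK3, the cardiac light chain kinase, rose at least 17.3-fold, and MYBPHL did not pass.

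Thin filament genes rose in 10 of 12, and 1 fell (median 3.26). ACTC1, cardiac actin, read 6.47 and 6.62 on day 0 and 13.95 and 14.08 on day 8 (7.47 ± 0.52). TNNC1, the calcium-binding troponin of heart and slow muscle, rose from 5.72 and 6.33 to 12.51 and 12.90 (6.68 ± 0.63). TMOD1, which caps the pointed ends of actin filaments, rose at least 81.4-fold, and ACTN2, the actin crosslinker of the Z disc, from background to 8.97 and 10.33. TNNI1, the fetal troponin I, rose to 6.49 and 6.16, at least 2.60-fold. TNNI3, the adult cardiac form, read 6.53 and 6.04 on day 0 and 8.16 and 8.44 on day 8 (2.01 ± 0.59), and lost its call without the dim array or the day 0 array of time course 2 (adjusted p = 0.054 and 0.098 in limma). ACTA1, skeletal actin, which the fetal heart also uses, read 9.63 and 13.79 on day 8 against 7.34 and 8.63 on day 0. TNNT1, the slow skeletal troponin T, went the other way, from 6.80 and 6.77 to 4.75 and 4.22, at least 3.57-fold lower. LMOD2, another pointed end protein, did not pass.

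All 18 measured genes of the Z disc, M band and sarcomere assembly rose (median 4.49), LDB3 among them, whose second probe did not pass (0.56 ± 0.25). MYOM3 and NRAP, also on the list, had probes but were detected on too few arrays to be tested. SMPX, a small protein of the muscle costamere, rose from 4.28 and 4.45 to 11.74 and 12.87, at least 163.8-fold. MYOM1, the M band crosslinker myomesin, rose at least 134.0-fold. SMYD1 and UNC45B, a methyltransferase and a chaperone of myosin, rose at least 94.5-fold and 21.8-fold. HSPB7 and CRYAB, small heat shock proteins of muscle, rose at least 94.2-fold and 21.4-fold. TTN, which codes for the giant spring titin, read 6.05 and 6.69 on day 8, at least 2.68-fold higher on a probe whose gene has a second probe that did not pass (0.29 ± 0.20). DES, the muscle intermediate filament desmin, rose by 0.56 ± 0.18, was detected on 1 of the day 8 arrays and lost its call without the dim array or the day 0 array of time course 2 (highest adjusted p = 0.12 in limma).

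Promoters of contractile genes carry sites for serum response factor (the CArG box) and for MEF2 factors, both matched here by their consensus in the same 300-base windows. A CArG box occurred in 5 of 27 contractile promoters (18.5%), those of MYL7, ACTC1, ACTA1, MYOM1 and LDB3, and in 1.24% of 10806 promoters of all genes tested. A MEF2 site occurred in 5 of 27, those of TTN, MYOZ2, SMPX, HSPB7 and SYNPO2L, and in 0.426% of all. The sequence TATAAA was found in 7 of 27, against 6.43% of all. These are letter matches and not measured binding. The upstream stretches of ACTC1, MYL7 and SMPX are shown as examples from the 12 largest rises, where MYOM1 also holds such a match; capitals mark the CArG box and TATAAA in ACTC1, the CArG box in MYL7 and the MEF2 site in SMPX (RefSeq, GRCh38.p14, minus strand, chr15:34795550-34795799, chr7:44141333-44141432 and chrX:21758117-21758266). Each ends at the base before the start, and the first marked site lies 109, 61 and 93 bases upstream.
ACTC1: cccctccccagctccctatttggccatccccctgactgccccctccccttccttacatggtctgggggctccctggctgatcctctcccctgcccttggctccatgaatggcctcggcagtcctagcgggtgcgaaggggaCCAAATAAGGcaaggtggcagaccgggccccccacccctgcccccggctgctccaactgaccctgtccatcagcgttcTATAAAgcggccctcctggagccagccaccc
MYL7: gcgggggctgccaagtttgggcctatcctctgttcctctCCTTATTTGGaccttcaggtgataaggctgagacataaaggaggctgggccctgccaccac
SMPX: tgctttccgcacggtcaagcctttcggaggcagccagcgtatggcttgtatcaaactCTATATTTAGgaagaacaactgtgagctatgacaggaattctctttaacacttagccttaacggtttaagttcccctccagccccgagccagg

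**Figure D2:**
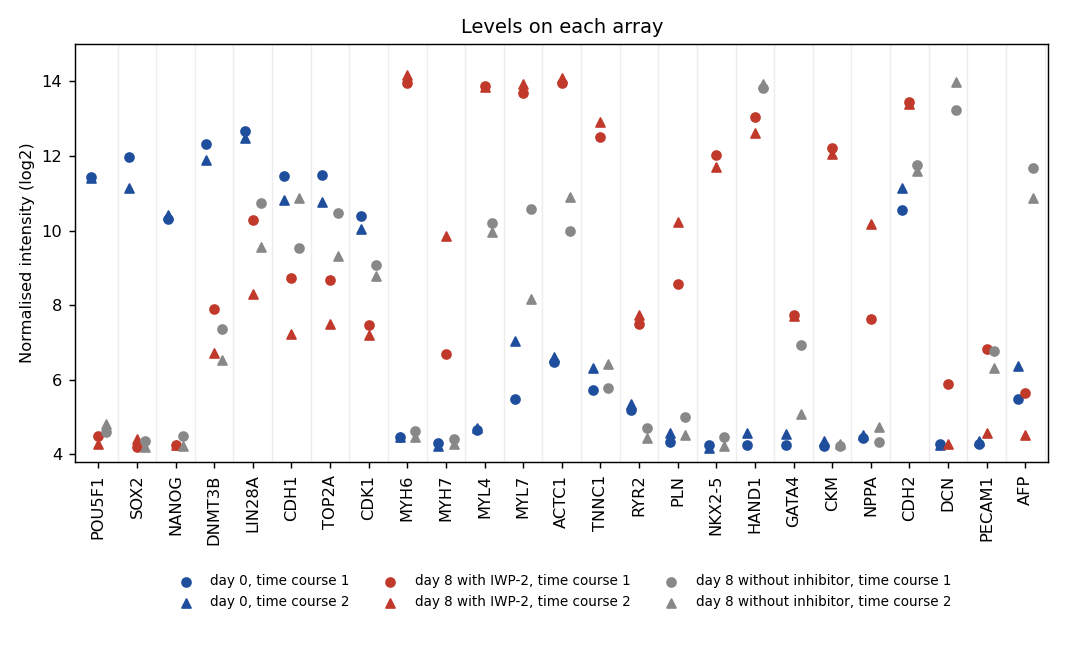
Normalised log2 intensity of 25 genes on the day 0 arrays (blue), the day 8 arrays with IWP-2 (red) and the day 8 arrays without inhibitor (grey), with circles for time course 1 and triangles for time course 2. MYH6, MYL4 and ACTC1 lie near the top of the scale in the inhibitor arm, and POU5F1, SOX2 and NANOG lie near the background in both day 8 groups.

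Calcium handling genes rose in 11 of 14, and 1 fell (median 2.56). PLN, the brake on the calcium pump of the sarcoplasmic reticulum, rose from 4.34 and 4.57 to 8.56 and 10.22, at least 21.7-fold. RYR2, the calcium release channel, was detected in both groups, at 5.19 and 5.36 and then at 7.51 and 7.75 (2.36 ± 0.36). HRC, a calcium-binding protein of the reticulum, rose from 6.06 and 4.73 to 10.88 and 11.08. SRL (sarcalumenin) rose at least 27.9-fold. CACNA1C and CACNB2, the pore and a subunit of the L-type calcium channel, rose at least 10.1-fold and 6.99-fold, though a second CACNA1C probe did not pass (0.52 ± 0.21). SLC8A1, the sodium-calcium exchanger, read 6.47 and 8.99 on day 8 and lost its call without the dim array or the day 0 array of time course 2 (highest adjusted p = 0.08 in limma). CASQ2, the calcium store protein, was detected on 1 day 8 array at 5.62 and did not pass. For JPH2, which ties the reticulum to the cell membrane, the brightest probe (0.43) and a second (0.12 ± 0.24) did not pass while another rose by 3.26 ± 0.38 (limma adjusted p = 3.86e-06), so its probes disagreed. FKBP1B fell by 1.22 on the log2 scale.

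Probes of ATP2A2, the pump SERCA2 of the sarcoplasmic reticulum, disagreed. The brightest read 10.13 and 9.83 on day 0 and 11.90 and 12.74 on day 8 (2.34 ± 0.39). Another rose by 2.46 ± 0.48. The remaining probe fell by 2.38 on the log2 scale (limma adjusted p = 1.77e-05), so no single direction holds for the gene.

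Among ion channels and gap junction genes 6 of 13 rose (46.2%, against 22.3% of all genes). The 2 that fell were 15.4%, under the 22.5% of all genes (list median 0.35). KCNH2, the hERG potassium channel, rose by 2.01 ± 0.36, and KCNJ8, a subunit of the ATP-sensitive potassium channel, at least 2.76-fold. ATP1B1, a subunit of the sodium pump, rose from 8.85 and 8.89 to 10.62 and 10.88. GJA1, connexin 43, fell from 12.98 and 12.26 to 8.00 and 6.97 (-5.14 ± 0.45), with both day 8 arrays below both day 0 arrays. Connexin 43 couples stem cells as well as mature ventricular muscle. HCN4, the pacemaker channel, read 5.05 and 5.08 and then 5.41 and 5.22, and KCNJ2, GJA5 and GJC1 also did not pass.

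Cardiac transcription factors rose in 24 of 28, and 0 fell (median 3.11). NKX2-5, the homeobox factor of the early heart, read 4.25 and 4.17 on day 0 and 12.03 and 11.71 on day 8, at least 121.2-fold higher (7.66 ± 0.68). HAND1, a factor of lateral mesoderm and the left ventricle, rose from 4.26 and 4.57 to 13.05 and 12.62, at least 236.8-fold. TBX2, a repressor that marks the atrioventricular canal and outflow tract, rose at least 51.7-fold. GATA5 rose at least 31.4-fold and GATA4, which binds with NKX2-5 and TBX5, at least 6.90-fold. MEF2C, a factor of muscle genes, rose from 4.35 and 4.34 to 8.43 and 7.38, and MYOCD (myocardin), the cofactor of serum response factor, at least 4.82-fold. IRX4, a ventricular homeobox factor, read 5.62 and 5.80 on day 0 and 9.72 and 10.66 on day 8. Both day 8 arrays lay above both day 0 arrays for each of these genes.

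ISL1, a factor of heart progenitors that is normally shut off in ventricular muscle, was still at 9.64 and 7.98 on day 8 (3.85 ± 0.82). TBX5, a factor of the first heart field, reached no more than 6.10 and 4.94 (0.96 ± 0.31). Its call was lost when either day 0 array or the day 8 array of time course 1 was left out. A second TBX5 probe rose by 1.19 ± 0.27 (limma adjusted p = 0.00188). HOPX, a homeodomain protein of heart muscle, read 7.74 and 5.55 against background on day 0, while its second probe differed by -0.06 ± 0.24. HEY2, SHOX2, TBX18 and NR2F1 did not pass: SHOX2, of the sinus node, was not above background on any of the 4 arrays, and HEY2, a ventricular repressor, read 8.79 and 8.31 and then 7.80 and 9.33.

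Among secreted peptides 4 of 7 rose (57.1%, against 22.3% of all genes), with a median of 1.42. Fewer rose without the dim array. NPPA, the atrial natriuretic peptide, rose from 4.43 and 4.51 to 7.62 and 10.17, at least 15.4-fold. NPPB, the brain natriuretic peptide, read 5.75 and 10.09 on day 8 and lost its call without the dim array (adjusted p = 0.083 in limma). EDN1, endothelin, rose at least 2.87-fold.

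The days between show when the groups came apart. In the inhibitor arm MYH6 read 4.89, 9.12, 13.81, 14.03 and 13.96 on days 3, 4, 5, 6 and 8 of time course 1. In time course 2 it read 5.47, 13.74, 14.17, 14.17 and 14.17. The inhibitor came 1 day earlier in time course 2, and the run and the IWP-2 window cannot be told apart in the values of these days. NKX2-5 read 5.86 on day 4 of time course 1 and 9.40 on day 4 of time course 2, and 12.03 and 11.71 by day 8. MYH7 was later: it read 4.67 on day 5 of time course 1 and 7.89 on day 5 of time course 2. ISL1 was highest on day 4, at 11.34 and 11.95, and lower by day 8. CKM, the muscle creatine kinase, read 7.48 on day 5 of time course 1 and 12.04 on day 5 of time course 2.

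Stem cell genes left in steps. SOX2 was at 7.90 and 7.18 on the day 1 arrays, which had no inhibitor, and POU5F1 still at 10.95 and 11.00 on the same arrays. POU5F1 fell below 5 between days 5 and 6 of time course 1, at 5.38 and 4.67, and read 4.78 on day 5 of time course 2. LIN28A stayed at 12.17 and 12.16 on day 4. These are single arrays per day and time course and carry no test.

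**Figure D3:**
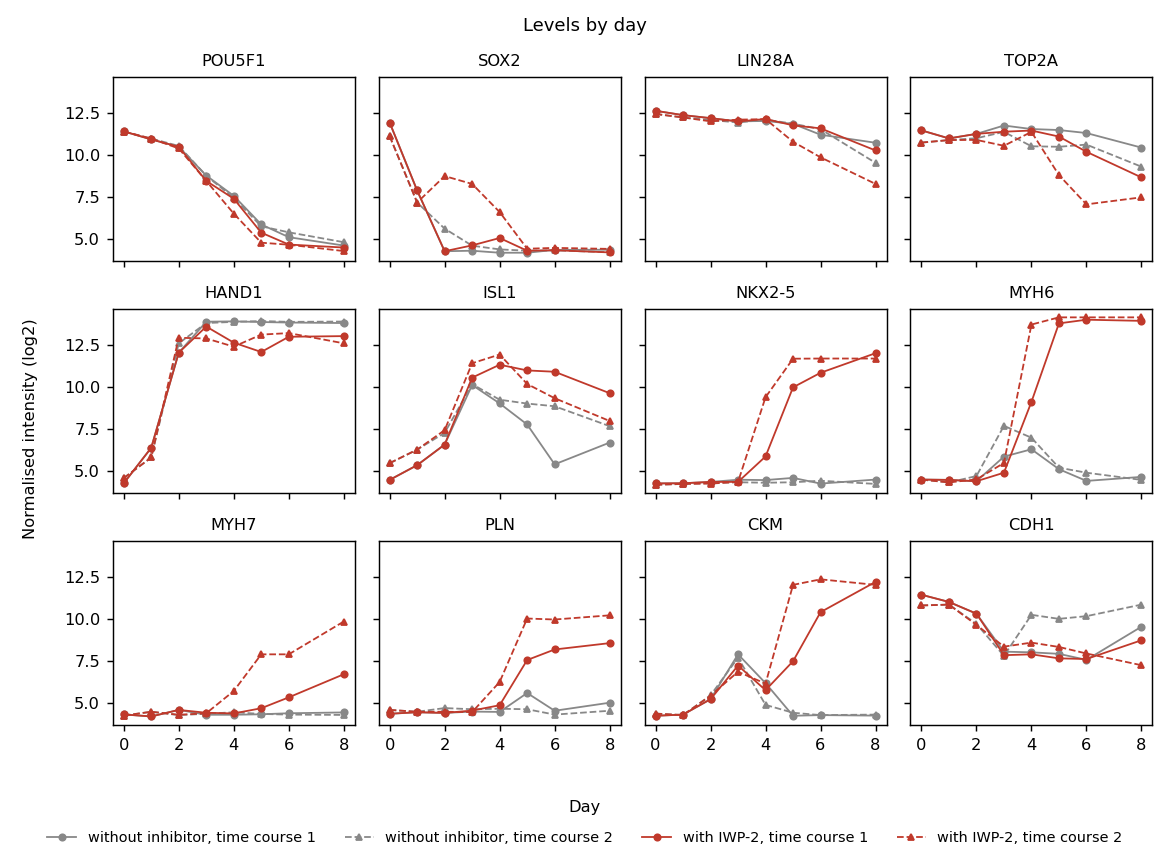
Normalised log2 intensity of 12 genes from day 0 to day 8, with IWP-2 in red and without in grey, solid lines for time course 1 and dashed lines for time course 2. Days before the inhibitor use the same arrays in both arms; MYH6 and NKX2-5 climb from day 4 in the red lines and stay near the background or return to it in the grey ones.

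Genes of muscle energy metabolism rose in 17 of 22, and 0 fell (median 2.26). CKM rose from 4.22 and 4.35 to 12.22 and 12.04, at least 145.1-fold. MB, the oxygen store myoglobin, read 5.20 and 4.64 and then 10.24 and 10.97 (5.69 ± 0.42). ENO3, the muscle enolase, rose from 7.43 and 7.95 to 12.73 and 12.65. CKMT2, the mitochondrial creatine kinase of muscle, rose at least 18.1-fold and PYGM, muscle glycogen phosphorylase, at least 12.4-fold. PPARGC1A, a coactivator that drives mitochondrial genes, read 5.57 and 5.02 on day 0 and 9.79 and 9.06 on day 8 (4.13 ± 0.61). HK2, LDHA, LDHB, LPL and PPARD did not pass, though 1 of the other LDHA probes rose by 1.10 ± 0.36.

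Fatty acid oxidation genes rose in 14 of 16 and respiratory chain and TCA cycle genes in 25 of 28, with 0 lower in either (medians 1.21 and 1.01). In both lists fewer rose when any of the 4 arrays was left out. ETFB, an electron carrier, rose by 2.06 ± 0.37, with another probe at 1.98 ± 0.28 and a further one that did not pass, and DECR1, which handles unsaturated fatty acids, by 1.84 ± 0.18. IDH2 and IDH3A, isocitrate dehydrogenases, rose by 2.37 ± 0.28 and 2.36 ± 0.40, SDHA, a subunit of complex II, by 1.75 ± 0.29 and NDUFB5, of complex I, by 1.44 ± 0.18. CPT1A, which admits fatty acids into mitochondria, differed by -0.43 and did not pass, while CPT1B, the muscle form, rose by 1.08. Of 15 glycolysis genes 6 rose (40.0%, against 22.3% of all genes) and 0 fell (median 0.84). PFKP was highest at 2.70 ± 0.28, and GPI was at 1.54 ± 0.27. Fewer glycolysis genes rose without the day 8 array of time course 1 or the day 0 array of time course 2. Sterol synthesis genes were mostly not called, with 1 of 12 higher (SC5D, 3.29 ± 0.33) and 1 lower (FDPS, -0.89 ± 0.28), whose call was lost without the dim array or the day 0 array of time course 2 (highest adjusted p = 0.15 in limma).

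Genes of the cell cycle and DNA replication fell in 34 of 39, and 0 rose (median -2.67). TOP2A, the topoisomerase of dividing cells, read 11.49 and 10.76 on day 0 and 8.68 and 7.49 on day 8 (-3.04 ± 0.54). AURKB, a kinase of chromosome segregation, had the largest fall on the list, from 10.04 and 9.66 to 6.15 and 5.76 (-3.90 ± 0.54). CDC20, which starts the exit from mitosis, differed by -3.56, UBE2C, the ubiquitin carrier it works with, by -3.40, CDT1, which licenses origins, by -3.35 and the mitotic cyclin CCNB2 by -3.34. CDK1, the mitotic kinase, read 7.48 and 7.19 on day 8 against 10.40 and 10.04 on day 0. The transcripts were still detected: all 4 arrays held TOP2A, AURKB, CDC20 and CDK1 above background. TYMS, MYBL2, E2F1, ORC6 and GINS1 did not pass, and a second ORC6 probe fell by 2.41.

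Promoters of this list were searched for sites known from cell cycle genes. The box CCAAT, bound by NF-Y and searched on both strands, occurred in 26 of 33 promoters of the list (78.8%) against 36.6% of 10806 of all genes tested. TTTGAA, the core of the cell cycle homology region bound by the DREAM and MMB complexes, occurred in 10 of 33 (30.3%) against 10.2%. The upstream stretches of CCNB2 and CDC20 hold repeated CCAAT boxes, with a single TTTGAA in CCNB2 and repeated ones in CDC20. Both come from RefSeq (GRCh38.p14, plus strand, chr15:59104896-59105145 and chr1:43358781-43358980) and end at the base before the start. These letters are shown in capitals, with TTCAAA as the reverse strand of TTTGAA.
CCNB2: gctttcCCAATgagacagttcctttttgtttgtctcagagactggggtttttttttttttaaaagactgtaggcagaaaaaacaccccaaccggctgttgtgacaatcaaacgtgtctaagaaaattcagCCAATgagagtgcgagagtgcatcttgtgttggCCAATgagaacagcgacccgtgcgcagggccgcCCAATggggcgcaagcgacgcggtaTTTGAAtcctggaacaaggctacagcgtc
CDC20: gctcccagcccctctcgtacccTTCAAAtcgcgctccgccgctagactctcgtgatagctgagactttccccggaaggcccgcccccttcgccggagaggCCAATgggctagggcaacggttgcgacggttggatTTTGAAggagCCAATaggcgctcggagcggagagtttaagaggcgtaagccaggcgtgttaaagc
In CCNB2 the CCAAT boxes start 244, 120, 87 and 54 bases upstream and TTTGAA 29 bases upstream. CCNB2 itself read 10.88 and 10.72 on day 0 and 7.92 and 7.00 on day 8.

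Of 19 genes of cell cycle exit and p53 response 7 rose and 2 fell (median 0.65), and 0 fell without the day 0 array of time course 2 or the day 8 array of time course 1. MEIS1, a homeobox factor that restrains cardiomyocyte division in mice, rose from 5.16 and 4.93 to 9.30 and 9.16 (4.19 ± 0.25). CDKN1C and CDKN1B, inhibitors of cyclin-dependent kinases, rose by 2.06 ± 0.40 and 1.52 ± 0.27, and CDKN1A did not pass. CCND1, cyclin D1, fell from 10.41 and 11.26 to 8.44 and 9.26, and lost its call without 1 of the day 0 arrays or the day 8 array of time course 1 (highest adjusted p = 0.071 in limma). Ribosome biogenesis genes and MYC targets fell in 17 of 19 (median -1.42), among them NOP56 (-1.73 ± 0.24) and DKC1 (-1.76 ± 0.17), which modify ribosomal RNA. MYC read 9.57 and 9.66 and then 5.85 and 6.53. ODC1, a MYC target of polyamine synthesis, was the member that rose (1.21 ± 0.32), and 0 rose when either array of time course 1 was left out.

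**Figure D4:**
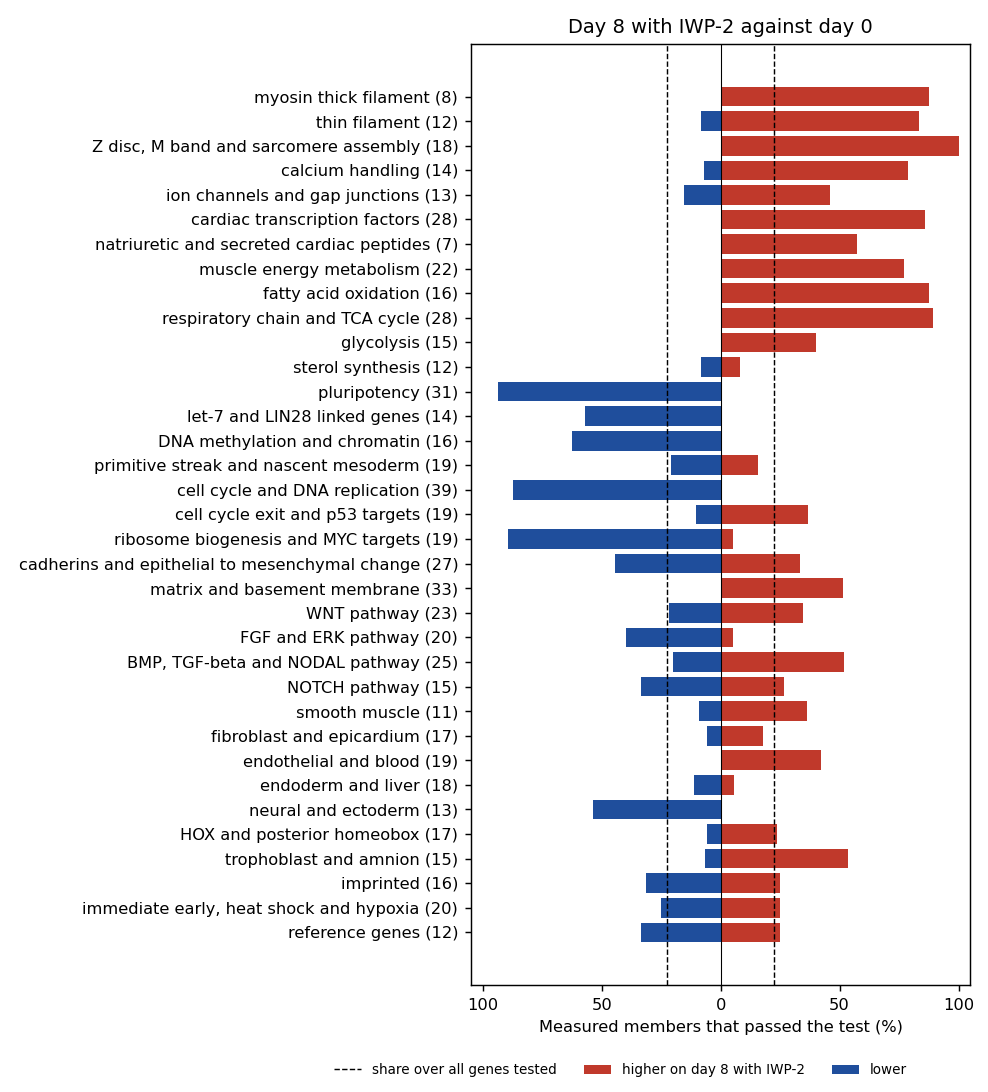
Bars give the share of each list's measured members that passed the test, higher (red, to the right) or lower (blue, to the left) on day 8 with IWP-2, with the number measured in brackets; dashed lines mark 22.3% higher and 22.5% lower over all 13572 genes. The muscle and mitochondrial lists reach far to the right and the pluripotency, cell cycle and ribosome biogenesis lists far to the left.

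Adhesion genes changed in both directions. Of 27 genes of cadherins and epithelial to mesenchymal change 9 rose (33.3%, against 22.3% of all genes). Another 12 fell (44.4%, against 22.5%), with a list median of -0.09. CDH2, N-cadherin, which joins heart muscle cells, rose from 10.56 and 11.13 to 13.44 and 13.38 (2.57 ± 0.25). CDH1, E-cadherin, fell from 11.45 and 10.81 to 8.73 and 7.24 (-3.14 ± 0.76) and lost its call without the dim array (adjusted p = 0.073 in limma). The tight junction genes CLDN10 and CLDN7 differed by -4.09 and -3.66 and the polarity gene CRB3 by -3.24, while EPCAM, an epithelial adhesion protein, was still at 10.83 and 9.81. VIM (vimentin) rose by 2.19 ± 0.31 and the repressor TWIST1 at least 2.82-fold. The repressors SNAI1 and SNAI2 did not pass.

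VCAM1, an adhesion molecule used to sort early cardiomyocytes, was among the 12 largest rises, from 4.20 and 4.29 to 12.15 and 12.32, at least 156.0-fold. ALPK2, an alpha kinase that acts in zebrafish heart development, rose from 4.22 and 4.28 to 12.31 and 12.58, at least 180.5-fold. Matrix genes rose in 17 of 33 (51.5%, against 22.3% of all genes), and 0 fell (median 1.00). Fewer matrix genes rose when any of the 4 arrays was left out. HAPLN1, which links hyaluronan to proteoglycans, rose at least 26.5-fold, the basement membrane genes NID2 and LAMA4 at least 29.8-fold and 21.3-fold, and FBN2, a microfibril protein, from 7.52 and 8.31 to 10.86 and 13.13. COL3A1, a fibrillar collagen, read 11.20 and 6.46 on day 8, so the day 8 arrays differed widely, and it lost its call when any array but the dim one was left out (highest adjusted p = 0.33 in limma). COL1A1 did not pass.

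In the WNT pathway 8 of 23 genes rose (34.8%, against 22.3% of all genes) and 5 fell (21.7%, against 22.5%), with a median of 0.10. Fewer fell when any of the 4 arrays was left out. RSPO3, a secreted enhancer of WNT signalling, rose from 4.23 and 4.49 to 12.36 and 10.96, at least 104.8-fold. WNT2, a ligand of the early heart, rose from background to 9.58 and 10.90, at least 39.1-fold. WNT5A and WNT5B, noncanonical ligands, rose by 3.64 ± 0.48 and 3.30 ± 0.34, and WNT11 by 3.20 ± 0.40. LEF1, the nuclear partner of beta-catenin, rose from 4.32 and 4.33 to 9.21 and 9.05. The ligand genes were higher well after the inhibitor days. SFRP2, a secreted WNT antagonist abundant in stem cells, fell at least 38.2-fold and the receptor FZD5 differed by -2.36. The feedback gene AXIN2 read 8.79 and 9.14 and then 8.08 and 9.67 and did not pass.

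In the BMP, TGF-beta and NODAL pathway 13 of 25 rose (52.0%, against 22.3% of all genes) and 5 fell (20.0%, against 22.5%), with a median of 0.78. Fewer fell without the dim array or the day 0 array of time course 2. BMP5, a ligand, rose at least 65.9-fold, from background to 10.92 and 11.06. BMPER, which binds BMPs outside the cell, rose at least 36.3-fold and BMP2, another ligand, from 5.72 and 6.87 to 10.00 and 9.62. SMAD6, an inhibitor that BMP signalling induces, rose by 4.20 ± 0.23 and BAMBI, a decoy receptor, by 3.24 ± 0.24. TGFB2 rose at least 9.65-fold. CER1, a NODAL and BMP antagonist, fell at least 4.72-fold. NODAL itself read 6.93 and 8.74 on day 0 and 6.99 and 4.43 on day 8 (-2.13 ± 0.60). It lost its call without the dim array or the day 0 array of time course 2 (highest adjusted p = 0.26 in limma), and the day 8 array lay below the day 0 array in time course 2 and not in time course 1.

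FGF and ERK genes fell in 8 of 20 (40.0%, against 22.5% of all genes), and 1 rose (5.0%, against 22.3%), with a median of -0.35. The riser was ETV5, a target factor, whose call was lost when any of the 4 arrays was left out (highest adjusted p = 0.13 in limma). FGF2, the stem cell growth factor, fell from 9.29 and 8.88 to 5.17 and 5.37 (-3.81 ± 0.32), FGFR4, a receptor, at least 6.14-fold and ETV4, another target factor, by 2.68. Of 15 NOTCH genes 4 were higher (26.7%, against 22.3% of all genes) and 5 lower (33.3%, against 22.5%), with a median of 0.01. Both counts were smaller when either day 8 array was left out. HEY1, a target of the pathway, read 9.87 and 7.27 on day 8 (3.05 ± 0.74) and lost its call without the day 8 array of time course 1. HES6 fell by 3.37. Of 19 primitive streak and early mesoderm genes 3 rose (15.8%) and 4 fell (21.1%), near or under the shares over all genes (median -0.07), and 2 fell without the day 0 array of time course 2. APLNR, the apelin receptor, rose from 4.81 and 6.33 to 10.24 and 8.82, and MESP1, the factor of cardiac mesoderm, was at 7.72 and 7.64 on day 8 (2.88 ± 0.46). EOMES, a T-box factor of streak and stem cells, fell at least 5.98-fold. TBXT, brachyury, did not pass.

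Lists of other cell types were read beside the cardiac ones. The 4 smooth muscle markers summed to 1976 and 4335 on day 0 and 12814 and 20314 on day 8. ACTA2, smooth muscle actin, which early heart muscle also makes, read 6.28 and 7.63 and then 13.29 and 13.52 (6.45 ± 0.45), and CNN1 (calponin) rose by 2.66 ± 0.40. MYH11, the myosin of mature smooth muscle, was detected on the dim day 8 array at 7.89 and not on the other at 4.97, and lost its call without the dim array or the day 0 array of time course 2 (highest adjusted p = 0.35 in limma). Of 11 genes on the smooth muscle list 4 rose (36.4%, against 22.3% of all genes) and 1, TPM4, fell (9.09%, against 22.5%). Fewer rose without the dim array or the day 0 array of time course 2.

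The 6 fibroblast markers summed to 357 and 274 on day 0. They summed to 5918 and 1372 in the inhibitor arrays of day 8 and to 46849 and 56131 on day 8 without it. POSTN, a fibroblast matrix protein, was not above background on either inhibitor array. Of 17 genes of fibroblasts and epicardium 3 rose (17.6%) and 1 fell (5.88%), both under the shares over all genes (median 0.49). The risers were PDGFRA, COL3A1 and LUM, a matrix proteoglycan, and only PDGFRA kept its call when any array but the dim one was left out. LUM reached an adjusted p of 0.32 in those limma fits, and its second probe did not pass (0.80 ± 0.50). PDGFRA, a receptor of mesenchyme and heart progenitors, rose from 5.22 and 4.52 to 10.51 and 9.69. With IWP-2, 2 of 4 epicardial markers were detected on the brighter day 8 array and 0 on the dim one. Their sums were 135 and 83, against 84 and 87 on day 0. The epicardial genes TCF21 and UPK3B were not above background on either inhibitor array.

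The 5 endothelial markers summed to 179 and 192 on day 0 and 1109 and 277 on day 8, with 5 and 3 of them detected. Endothelial and blood genes rose in 8 of 19 (42.1%, against 22.3% of all genes). The list median was 1.67 for time course 1 and 0.18 for time course 2. When the day 8 array of time course 1 was left out 4 of 19 rose, and 12 when the dim one was. LMO2, a blood and endothelial cofactor, and PECAM1, an endothelial adhesion protein, lost their calls without the former (highest adjusted p = 0.13 and 0.82 in limma), and PECAM1 also without either day 0 array. CDH5, VE-cadherin, read 8.63 and 5.96 on day 8 and CD34 read 9.39 and 5.84, against background on day 0, and of the other CD34 probes 1 rose by 2.75 ± 0.99 and 1 differed by -0.21 ± 0.21. CD34 lost its call without the day 8 array of time course 1 or 1 of the day 0 arrays (highest adjusted p = 0.28 in limma). Blood markers TAL1 and HBE1 were not above background on either day 8 array, and GATA1 and PTPRC were not measured.

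Endoderm and liver markers summed to 404 and 812 on day 0 and 1100 and 331 on day 8. Of these 8 markers 4 were detected on each day 0 array, and 7 and 2 on the day 8 arrays. FGB was not above background on either day 8 array. Of 18 genes on the endoderm and liver list 1 rose (5.56%) and 2 fell (11.1%), both under the shares over all genes. The riser was APOA1, an apolipoprotein of liver and yolk sac, whose call was lost without either array of time course 1 (highest adjusted p = 0.23 in limma); without the dim array 3 rose. FOXA2, an endoderm factor, read 7.57 and 8.71 on day 0 and 7.10 and 4.22 on day 8 and lost its call without the dim array or the day 0 array of time course 2 (highest adjusted p = 0.34 in limma). FOXA3 fell by 2.21 ± 0.36. Neural and ectoderm genes fell in 7 of 13 (53.8%, against 22.5% of all genes), and 0 rose (median -1.11). TUBB3, a tubulin of neurons that stem cells also make, fell by 3.21 ± 0.32 and OTX2, a factor of the early forebrain and of stem cells, from 9.66 and 9.05 to 6.55 and 6.54. The 2 measured of 4 neural markers summed to 158 and 106 and then 65 and 80, and PAX6 and SOX1 were not measured. The skeletal muscle markers MYOD1, MYOG, MYF5 and MYH3 had probes but were detected on fewer than 2 of the 27 arrays, so they were not tested. The part of other cell types in the results was not tested.

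HOX and other posterior homeobox genes rose in 4 of 17 (23.5%), near the 22.3% of all genes, and 1 fell (5.88%, against 22.5%; median 0.08). MSX1 and CDX4, a riser and the gene that fell, lost their calls in 2 and 3 of the 4 fits with 1 array left out (highest adjusted p = 0.099 and 0.26 in limma). HOXB2, a gene of the anterior HOX cluster, rose at least 15.4-fold and HOXB3 at least 1.42-fold, the latter on 1 of 2 probes. MSX2, a BMP target, rose at least 5.54-fold. HOXB6, HOXB7, HOXB8, HOXC6 and HOXC8 did not pass, and HOXB8 was not above background on any of the 4 arrays. Trophoblast and amnion genes rose in 8 of 15 (53.3%, against 22.3% of all genes), HAND1 and ISL1 among them, which heart progenitors share. Fewer rose when any of the 4 arrays was left out, fewest without the day 8 array of time course 1. VTCN1, an amnion and trophoblast surface protein, rose from background to 8.51 and 7.48, at least 8.26-fold, and lost its call without the day 8 array of time course 1 (adjusted p = 0.052 in limma). Of 16 imprinted genes 4 rose (25.0%, against 22.3% of all genes) and 5 fell (31.2%, against 22.5%). Fewer fell without the dim array or the day 0 array of time course 2. H19, a fetal noncoding RNA, rose from 4.75 and 5.22 to 11.09 and 9.51 (5.32 ± 0.82), and MEG3, another imprinted noncoding RNA, fell by 1.93 ± 0.34.

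Genes of the immediate early response, heat shock and hypoxia rose in 5 of 20 and fell in 5 (25.0% each, near the shares over all genes, median 0.32), and rose in 3 without the dim array. VEGFA, a hypoxia target and vessel growth factor, rose from 5.28 and 5.64 to 8.34 and 9.20 (3.31 ± 0.37) and NDRG1, another, by 2.72 ± 0.50. EGR1, an immediate early factor, read 10.56 and 8.54 on day 0 and 6.53 and 6.43 on day 8. Of 12 reference genes 3 rose (25.0%, against 22.3% of all genes) and 4 fell (33.3%, against 22.5%), with a median of -0.04. Among them were SDHA at 1.75 ± 0.29, HPRT1 at -1.16 ± 0.20 and ACTB at -0.89 ± 0.21. ACTB lost its call without the dim array. TBP, PPIA, YWHAZ, GUSB and GAPDH did not pass, though 1 of the other GAPDH probes rose by 0.67 ± 0.25. The counts of reference genes fell to 1 higher without the day 0 array of time course 2 and to 2 lower without either array of time course 1.

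Day 8 with IWP-2 was then set against day 8 without it, again 2 arrays against 2. Cells without the inhibitor had received the same FGF2, BMP4 and CHIR compound, so the effect of culture time alone was not tested. This comparison shares its day 8 inhibitor arrays with the comparison to day 0. Of 13572 genes 3484 passed (25.7%), 1746 higher with IWP-2 (12.9%) and 1738 lower (12.8%). The count depended on single arrays: 2097 passed without the dim array and 2001 without the no-inhibitor array of time course 2.

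Contractile genes were higher with the inhibitor in 34 of 38 and lower in 1 (median 3.82). MYH6 was at 4.64 and 4.46 without the inhibitor, not above background, and at least 623.1-fold higher with it. NKX2-5 was at 4.48 and 4.22 without it, at least 136.5-fold higher with it, and CKM at least 163.4-fold. MYL4, in contrast, read 10.20 and 9.96 without the inhibitor (a difference of 3.78 ± 0.42), and ACTC1 read 10.00 and 10.90. SLN, sarcolipin, a small regulator of the calcium pump, read 7.58 and 6.64 with IWP-2 and 11.18 and 12.75 without it (-4.85 ± 0.91). Glycolysis genes were higher with the inhibitor in 13 of 15 (median 1.81) and respiratory chain and TCA cycle genes in 25 of 28 (median 1.28). GAPDH, which had read 13.12 and 13.26 on day 0, read 13.79 and 13.48 with IWP-2 and 12.44 and 11.87 without it.

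The cardiac factors were less uniform, with 14 of 28 higher with the inhibitor and 2 lower (median 1.21). HAND1 read 13.83 and 13.92 without IWP-2 and was lower with it (-1.04 ± 0.30), and GATA6 was lower by 1.07. GATA5 and HAND2 did not pass. Pluripotency genes were higher with the inhibitor in 0 of 31 and lower in 9 (median -0.21), and POU5F1, SOX2 and NANOG did not pass. Cell cycle genes were lower with it in 13 of 39 and higher in 0 (median -0.83): TOP2A read 10.46 and 9.32 without the inhibitor and 8.68 and 7.49 with it (-1.80 ± 0.54).

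Fibroblast and epicardium genes were lower with IWP-2 in 12 of 17 and higher in 0 (median -3.14), led by DCN, the matrix proteoglycan decorin, at 13.24 and 13.98 without and 5.88 and 4.29 with the inhibitor (-8.52 ± 0.95). POSTN was at least 64.0-fold lower with it. Endoderm and liver genes were lower in 11 of 18 (median -2.29), with AFP, a protein of yolk sac and fetal liver, at 11.67 and 10.86 without and 5.66 and 4.53 with IWP-2. HOX and posterior homeobox genes were lower in 11 of 17 (median -1.73), with HOXB8 at 10.85 and 11.48 without the inhibitor and at least 74.4-fold lower with it. PITX1, a homeobox factor of hindlimb mesoderm (12.57 and 13.01 without, 5.52 and 4.46 with), and PRPH, an intermediate filament of neurons (11.00 and 12.52 without, 5.22 and 4.26 with), had the largest differences after DCN among genes lower with IWP-2.

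**Figure D5:**
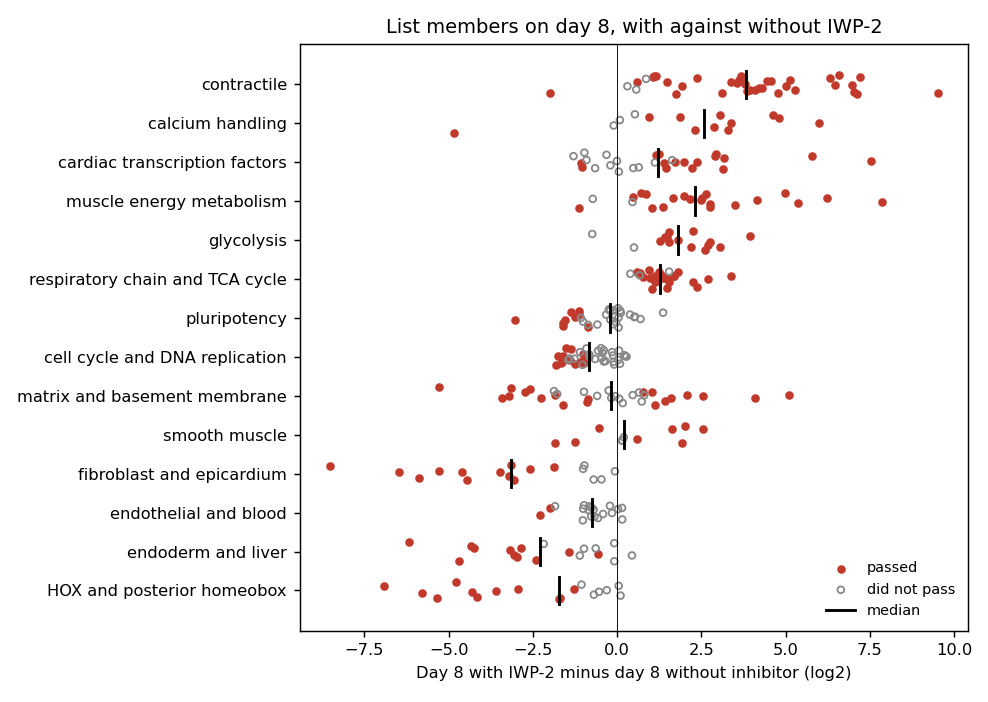
Each point is a measured list member, placed by its log2 difference between day 8 with IWP-2 and day 8 without inhibitor; red points passed the test, open points did not, and black bars are list medians. Contractile genes centre on 3.82 and fibroblast and epicardium genes on -3.14.

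The size of the change from day 0 was set against the time course with an interaction term in limma. Of 13572 genes 11 passed (0.081%), 7 with a larger value in time course 2 (0.0516%) and 4 with a smaller one (0.0295%). NODAL had the largest difference in size, -4.37: it read 6.93 and then 6.99 in time course 1 and 8.74 and then 4.43 in time course 2. NPTX1, neuronal pentraxin, was at 9.03 and 5.70 on day 0 and at background, 4.32 and 4.35, on day 8. No contractile or pluripotency gene other than NODAL was among the 11. The run, the IWP-2 window and the dim array cannot be told apart here.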

How the data were processed

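Column-purified total RNA was amplified with biotin labelling, per the labels' protocols, and read on Illumina bead arrays. The deposited scanner table holds a signal intensity and a detection p-value per probe and array, per the file headers, and GenomeStudio is named without a version in the submitters' processing notes. The intensities are not normalized, judged from their values. The authors' processed intensity table is linear, with negative values. Its column medians are 6.876 (time course 1) and 4.630 (time course 2), the rank correlation of each column with its array's scanner signal is 1.000, and how it was normalized is not stated in what was used here. It served as an alternative.

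Background correction and quantile normalization used neqc (limma 3.58.1, R 4.3.3, offset 16), giving log2 values from the deposited intensities. Of 47323 probes 30113 carried 1 gene symbol, 8 several and 17202 were not listed and stay unnamed here. Probes detected at p below 0.01 on at least 2 arrays were kept (23933), and the brightest probe on average stood for its gene, leaving 13572 genes. Entrez identifiers of 30074 probes matched RefSeq and 0 symbols changed. Among 224 named genes 13 of 88 other probes did not pass or differed in sign. The fit (lmFit and eBayes) used all 27 arrays, 14 groups (each day of each arm) and a block for the time course, with 12 residual degrees of freedom. The labels tie each uninhibited arm to the inhibitor arm of its run, and the time course deviations of the 13 groups with 2 arrays correlated in all 78 pairs of groups, with r between 0.122 and 0.802. Adjusted p-values follow Benjamini and Hochberg at 0.05. Where no array of a group detected a gene, the fold is a lower bound: the brighter group's mean over the dim group's, where each dim array counts at its lowest detected value or at the probe's signal if that is higher. The scale is floored by the offset, so fitted differences of dim genes are understated.

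The genes and the 36 lists (703 genes, 611 tested) were chosen with earlier results of these data known. Named genes were the 12 largest differences each way among those that passed and had 1 sign in both runs, as many as 6 passing members per list, fixed genes, and the 6 largest each way in the other comparisons; list members that did not pass are named as such. On simulated data over 13572 genes the day 8 against day 0 fit recovered 53% of genes changed by 1 and 97% of those changed by 2 (log2), with 1 false call; the fit of the time course difference recovered 88.5% of changes of 3, with 8 false calls. Alternatives covered the block, arrays in the fit, background, offset, scaling, the authors' table, detection filters, probe choice, variance model, array weights, thresholds and left-out arrays.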

Additional observations from a re-analysis of the deposited data

Results flagged for a closer look

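The difference between day 8 with IWP-2 and day 0 was not of the same size in both time courses for 11 genes, by an interaction term in limma at an adjusted p of 0.05 (0.081% of 13572 genes). The values here are the difference in time course 2 minus that in time course 1, in log2. It was -4.37 for NODAL, -2.09 for PEA15, -1.80 for NPB and -1.80 for SHC3, and 2.02 for KLHL24, 2.24 for LDHD, 2.38 for A4GALT, 2.56 for VWC2, 2.79 for BCL6, 3.13 for RBP7 and 3.36 for NPTX1. NODAL, PEA15 and SHC3 were higher on the day 0 array of time course 2 than on that of time course 1, and BCL6, LDHD and NPTX1 were lower there. VWC2 and RBP7 differed more on day 8, at 4.85 and 7.17 and at 4.63 and 6.48. The run, the IWP-2 window and the dim day 8 array cannot be told apart in these values.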

How the results depend on the processing

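With 2 arrays a group the precision is low, and the day 8 array of time course 2 is dim. The count of 6074 genes for day 8 with IWP-2 against day 0 was 4523 to 5405 over the fits that leave out 1 array each, and 3234 with at least a 2-fold difference. For 35 contractile genes higher, 29 pluripotency genes lower, 34 cell cycle genes lower and 24 cardiac factors higher, no alternative moved the count by 1.5 times. Of 212 named genes that passed, 169 kept the call with each of the 4 arrays left out in turn. 1 named gene reversed: NPB, at -0.02 and not called, was 0.59 when the dim array was left out and -0.64 when the other day 8 inhibitor array was, and passed in both fits. Without the replicate block 4948 genes passed, and 2387 in the comparison with day 8 without inhibitor; no call of a count in the report turned. That comparison's 3484 genes became 2102 with only the arrays compared, 2070 at an adjusted p of 0.01, 1868 at 2-fold, and 2001 to 2869 over left-out arrays. Median scaling moved its share higher from 50.1% to 57.6%. The 11 genes with a time course difference became 17 without background correction, 18 without a detection filter, 4 with the authors' values, 3 with array weights and 4 at an adjusted p of 0.01. The cause of these shifts was not tested.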

Other observations

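Families beside the lists above were counted after their values had been seen, and so carry no test over the family; over all genes 22.3% were higher and 22.5% lower. Metallothioneins, small proteins that bind zinc and copper, were lower on day 8 with IWP-2 in 6 of 7 measured genes (85.7%) and higher in 0 (median -3.31). MT1H read 8.87 and 9.97 on day 0 and 4.48 and 4.45 on day 8, MT1F read 10.52 and 10.84 and then 6.42 and 6.30, and MT1X read 11.10 and 11.30 and then 8.11 and 7.67. Day 8 arrays without the inhibitor were at similar levels, with MT1X at 7.09 and 6.93, and 0 of 7 passed in the comparison of the day 8 groups, where limma gave MT1X an adjusted p of 0.16. The sequences of metallothionein genes are close to each other, so their probes may share signal.

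Probes for small nucleolar RNAs, guides of ribosomal RNA modification, were lower in 52 of 109 (47.7%) and higher in 4 (3.67%, median -0.48). Cytosolic ribosomal protein genes were lower in 12 of 67 (17.9%) and higher in 4 (5.97%), both under the shares over all genes (median -0.06). Tubulin genes were lower in 7 of 12 (58.3%) and higher in 0, with TUBB2B at 13.59 and 13.69 on day 0 and 11.01 and 9.91 on day 8. RBM20 and RBM24, splicing factors of heart and muscle transcripts such as titin, read 4.56 and 4.50 and 4.31 and 4.64 on day 0 and rose at least 8.93-fold and at least 34.5-fold. HLA class II genes were lower in 7 of 11 (63.6%) and higher in 2 (18.2%), and the probes of HLA-DRA differed in sign (0.75 and -0.70). MIR100HG, the host transcript of a cluster with let-7a-2, rose from 4.42 and 4.35 to 8.69 and 8.42, and MIR99AHG, the host of a cluster with let-7c, from 4.47 and 4.17 to 6.77 and 8.06.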
